A study of Mus musculus with 12 samples.

Results

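FSH together with EGF was set against GDF9 in mouse cumulus cells, the somatic cells that surround the oocyte. The comparison used 8 of the 12 arrays of the series, which were 4 arrays of complexes given FSH and EGF and 4 of complexes given GDF9. These arrays were chosen by their titles alone. The other 4 arrays, from complexes in control medium, show for each gene whether the level without either agent lay between the treatments or outside both. All 19938 genes with a single symbol in the array annotation were compared, each read from 1 probe set, the brightest by its mean over the 12 arrays.

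All cumulus-oocyte complexes came from 129SV females 21 to 26 days old, 44 h after 5 IU of equine chorionic gonadotropin. They were collected with cilostamide, a phosphodiesterase inhibitor, at 1 micromolar, and cultured for 8 h, 20 complexes to a drop of 50 microlitres. The FSH/EGF group had 50 mIU/ml of FSH with 10 ng/ml of EGF, in 293H control medium (0.125% v/v). The control group had that 293H medium alone. GDF9 was given at 20 ng/ml, and since its labels mention no 293H medium, GDF9 and this medium cannot be told apart in either comparison with it. FSH and EGF were always given together. The oocyte stayed in the complex throughout culture and was removed before RNA was taken, so the oocyte's own factors were present in every group. The labels count 8 biological replicates per condition and state that each array holds the pooled RNA of 2 of them, so every p-value here measures the spread between such pools.

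FSH is the pituitary gonadotropin that signals in granulosa and cumulus cells through cyclic AMP, and EGF activates a receptor tyrosine kinase and the ERK kinases. In the ovary, LH releases EGF-like ligands from the follicle wall, and culture with FSH and EGF stands in for that signal, which makes cumulus cells lay down a hyaluronan matrix and expand. GDF9 is a TGF-beta family protein secreted by the oocyte, which acts on cumulus cells through SMAD2 and SMAD3, regulates their metabolism and sterol synthesis, and takes part in expansion.

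The values are log2 signals, normalized by the authors, and array medians ran from 5.41 to 5.53. Arrays correlated at 0.991 to 0.995 within the FSH/EGF group, at 0.979 to 0.991 within the GDF9 group and at 0.971 to 0.992 within the control group. Between the GDF9 and FSH/EGF arrays the correlation was 0.956 to 0.965, and between GDF9 and control arrays it was 0.965 to 0.993. Markers of the oocyte stood apart on control array 4, with a median over the 22 measured markers of 5.94. FSH/EGF array 3 was next at 5.05, close to control array 1 at 4.97, and the others lay from 4.56 up. Control array 1 had the lowest weight of the 12 in limma's array weighting, 0.269. Without these 3 arrays, 5490 genes passed the threshold between the treatments in place of 5804.

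FSH/EGF and GDF9 left cumulus cells in widely different states. Of 19938 genes, 5804 (29.1%) passed the threshold, a limma adjusted p under 0.05, with 3711 (18.6%) higher with FSH/EGF and 2093 (10.5%) lower. At least 2-fold differences were found for 863 genes that were higher (4.33%) and 446 that were lower (2.24%). The arrays of the treatments did not overlap in 6715 genes (33.7%). Over all genes tested the median difference was -0.03.

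The 10 largest rises had GDF9 means of 3.83 (Sult1e1) to 5.75 (Btc) and FSH/EGF means of 9.20 (Sytl3) to 10.70 (Btc). Sult1e1, the sulfotransferase that inactivates estrogens, read 3.91, 3.77, 3.76 and 3.88 on the GDF9 arrays and 10.23, 11.12, 10.47 and 10.87 on the FSH/EGF arrays. The treatments did not overlap. The difference was 6.84 (SE 0.15, limma adjusted p = 1.64e-11), which is 115-fold.

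Nts, which encodes the peptide neurotensin, read 4.43, 4.74, 4.57 and 4.49 with GDF9 and 10.39, 10.38, 10.00 and 10.23 with FSH/EGF. Its difference was 5.70 (SE 0.10, limma adjusted p = 3.54e-12). Btc, an EGF-like ligand of the EGF receptor, read 5.82, 5.79, 5.71 and 5.67 with GDF9 and 10.62, 10.74, 10.66 and 10.77 with FSH/EGF, a difference of 4.95. These genes are secreted signals, as are Nmu (4.87, the peptide neuromedin U), Penk (4.45, the precursor of enkephalins) and the Wnt antagonist Sfrp2 (5.31). The remaining rises were Flnc (5.17, an actin crosslinker), Akr1b8 (5.12, an aldo-keto reductase), Sytl3 (4.65, a vesicle traffic protein) and Enpp3 (4.55, an ectoenzyme that cleaves nucleotides). In each of the 10 the GDF9 and control means differed by at most 0.17.

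The 10 largest falls had GDF9 means of 8.98 (Cnnm1) to 10.64 (Myocd), in the upper part of the signal range. Akr1c14, an aldo-keto reductase of steroid metabolism, read 10.64, 10.26, 10.58 and 10.82 with GDF9 and 6.13, 5.73, 5.81 and 5.60 with FSH/EGF. The difference was -4.76 (SE 0.13, limma adjusted p = 1.06e-10). Slc18a2, the vesicular monoamine transporter, followed at -4.60, and Tmem182 at -4.19. Myocd, a coactivator of smooth muscle genes, read 10.70, 10.54, 10.70 and 10.63 with GDF9 and 6.73, 6.05, 6.57 and 6.51 with FSH/EGF, and fell by 4.18. Hpgd, the enzyme that inactivates prostaglandins, fell by 3.91. The others were Cnnm1 (-3.80), Fhl1 (-3.76, a LIM-domain protein of muscle), Grb14 (-3.75, an adaptor that inhibits the insulin receptor), Phactr2 (-3.48) and Car14 (-3.47, a carbonic anhydrase). Again the control arrays lay beside the GDF9 arrays, and the control means were at most 0.26 from the GDF9 means.

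**Figure D1:**
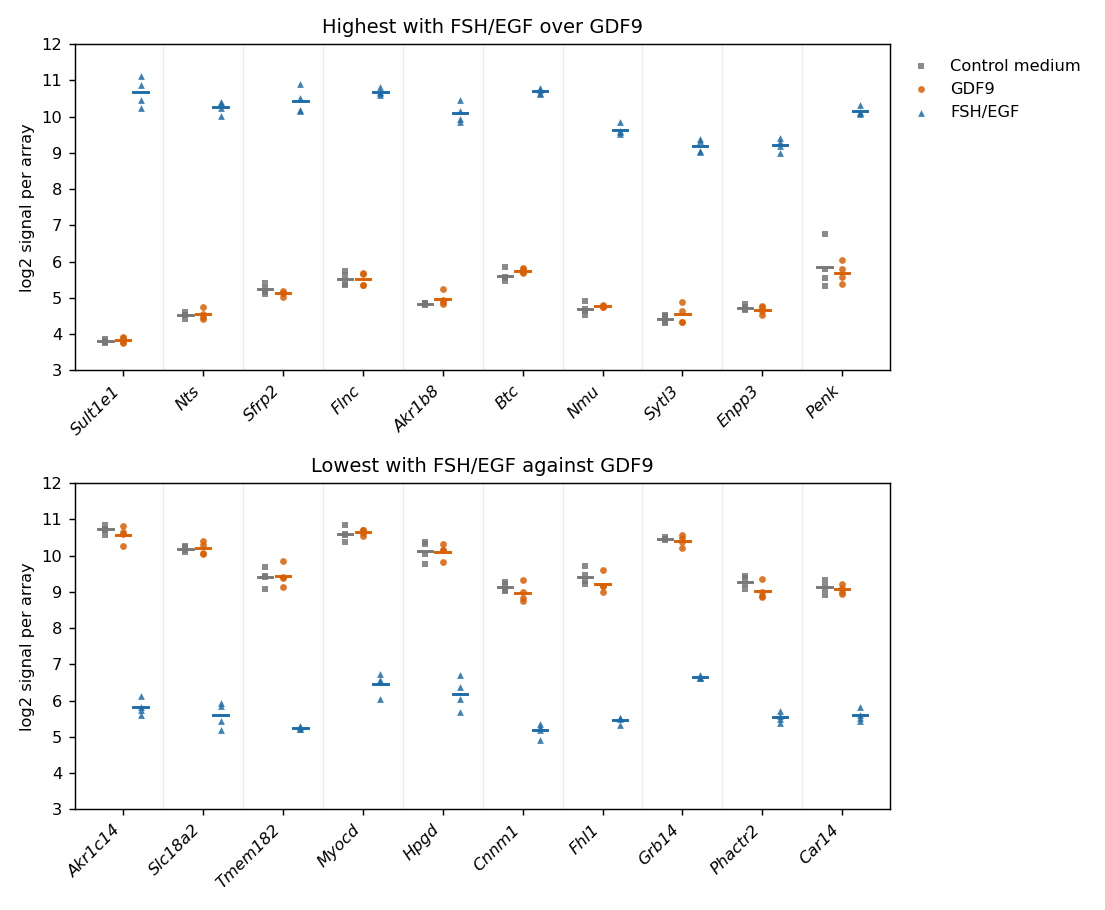
Log2 signal of the 10 genes with the largest rise (upper panel) and the 10 with the largest fall (lower panel) in FSH/EGF minus GDF9. Each point is an array, squares for control medium, circles for GDF9 and triangles for FSH/EGF, and the bars are group means of 4 arrays. For Sult1e1 the GDF9 arrays sit at 3.76 to 3.91 and the FSH/EGF arrays at 10.23 to 11.12, and in all 20 genes the control points lie with the GDF9 points.

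The control mean was not between the treatments for 3435 of the 5804 genes past the threshold (59.2%), against 71.4% of all genes tested. It was below both treatments for 2472 of the 3711 higher genes (66.6%), which is 12.4% of all genes tested, and above both for 963 of the 2093 lower genes (46.0%), which is 4.83% of all. It lay between them for 1239 higher and 1130 lower genes. Over all genes, called or not, control was lowest in 55.0% of those with FSH/EGF above GDF9. It was highest in 65.1% of those with FSH/EGF below GDF9. Control outside the treatments was thus not more common among the called genes than among all genes. In each of the 3435 genes GDF9 was in the middle and FSH/EGF at the far end, and 0 had GDF9 at the far end. These genes were chosen by the difference between the treatments, so their place beside control rests on GDF9 minus control.

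Over the 5804 genes past the threshold, the place of control on a scale from GDF9 (0) to FSH/EGF (1) had a median of -0.039 and quartiles of -0.172 and 0.079. This describes genes chosen by the distance that sets the scale, and it includes those with control between. FSH/EGF minus control had 7334 genes past the threshold (36.8%), and it shares its FSH/EGF arrays with the comparison of the treatments. GDF9 minus control alone had no gene past the threshold (smallest limma adjusted p 0.847), 987 genes (4.95%) with an unadjusted p under 0.05, and 462 genes (2.32%) whose arrays did not overlap. A test that both treatments differ from control in the same direction (the larger of the p-values in limma, adjusted over all rows) called 0 genes, with 708 at an unadjusted p under 0.05. Without GDF9 array 3 it called 1 gene, Dusp6.

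Where the control mean lay also moved with the signal level of a gene, whether or not the gene was called. Of all genes, 27.4% had the control mean below both treatments and 44% above both. The order turned with equal array medians, to 38.4% below both and 30.5% above, while a further quantile normalization gave 25.8% and 40.8%. Genes were split by mean signal into 10 classes of equal size, from the dimmest (1) to the brightest (10). The control mean was above both in 60.4 to 68.9% of genes over classes 1 to 5. In the brightest classes, 8 to 10, it was below both in 53.3 to 56.1%. The spread of signal over the rows of an array was 1.84 to 1.88 in control medium, 1.83 to 1.91 with GDF9 and 1.93 to 1.95 with FSH/EGF. After a further quantile normalization the shares were 47.2 to 51.5% above both in classes 1 to 5 and 35.2 to 36.7% below both in classes 8 to 10. The part of this scale difference in the place of any single gene's control mean was not tested. The genes below were taken by non-overlap of their arrays, a pattern that also moved with the scaling.

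**Figure D2:**
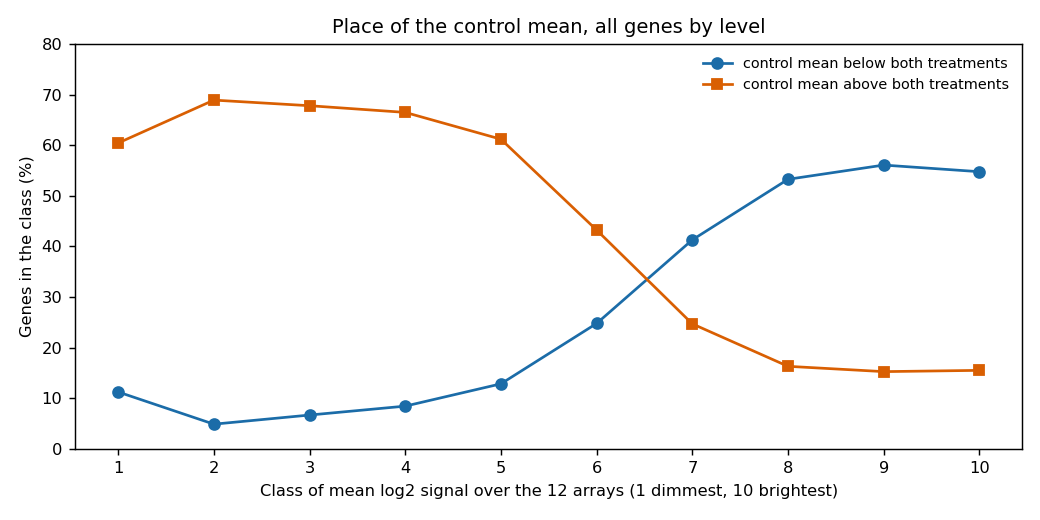
Share of genes whose control mean lies below both treatment means (circles) or above both (squares), in 10 classes of mean log2 signal over the 12 arrays, about 1994 genes each. The share below both rises from 4.87% in class 2 to 56.1% in class 9, and the share above both falls from 68.9% in class 2 to 15.5% in class 10.

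By arrays, 97 genes higher with FSH/EGF had all 4 control arrays below all 8 treated arrays, and 26 genes lower with FSH/EGF had them above. Over all genes tested these patterns held for 145 (0.727%) and 121 (0.607%). Leaving out 1 array in turn, which leaves fewer arrays to compare, gave 90 to 253 and 23 to 76 in place of 97 and 26. Both scalings tried, quantile normalization again and equal array medians, kept the call and the pattern for 34 of the 97 and 8 of the 26. Among the low genes, those with the largest gap between control and the nearer treatment were Dusp6, Idi1, Msmo1, Inhba, Kdelr3 and Ltv1. Of these, Dusp6, Idi1, Msmo1 and Inhba kept call and pattern under both scalings.

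Dusp6 encodes the phosphatase that switches off ERK and is itself induced by ERK. It read 6.20, 6.05, 6.02 and 6.25 in control medium, 7.13, 6.99, 6.41 and 7.12 with GDF9, and 9.67, 9.53, 9.49 and 9.71 with FSH/EGF. The groups formed 3 separate steps, with GDF9 array 3 the nearest to control. FSH/EGF exceeded GDF9 by 2.68 (SE 0.14, limma adjusted p = 2.34e-08), which is 6.42-fold. GDF9 exceeded control by 0.78, the step for which the gene was picked, and this did not pass (limma adjusted p = 0.847). Without GDF9 array 3 that step was 0.95 and passed (limma adjusted p = 0.0103).

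Inhba encodes the beta A subunit of activin A and inhibin A. It read 9.47, 9.83, 9.94 and 10.00 in control medium, 10.44, 10.33, 10.33 and 10.20 with GDF9, and 10.50, 10.91, 10.70 and 11.22 with FSH/EGF. Here the step from control to GDF9, 0.52, was as large as the step from GDF9 to FSH/EGF, 0.51. The latter passed the threshold narrowly (SE 0.15, limma adjusted p = 0.028) and lost the call without GDF9 array 2, 3 or 4 or without FSH/EGF array 2 or 4, at 0.38 to 0.51. It also lost the call in a limma fit with no moderation of the variances.

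Kdelr3, a receptor that returns escaped chaperones to the endoplasmic reticulum, had means of 7.20 in control medium, 7.68 with GDF9 and 8.59 with FSH/EGF. Its difference between the treatments was 0.91 (SE 0.13, limma adjusted p = 0.000165). Ltv1, a factor of small ribosomal subunit assembly, had means of 6.63, 7.08 and 7.38, and its difference of 0.30 was close to the threshold (limma adjusted p = 0.043). Ltv1 lost the call after a further quantile normalization, at 0.15, with a variance trend or no moderation, and without control array 3, GDF9 array 2 or 4, or FSH/EGF array 1, 2 or 3, at 0.24 to 0.30. Hif1a, the oxygen-regulated transcription factor, and Plaur, the urokinase receptor, also had their control arrays below all treated arrays, with GDF9 above control by 0.32 and 0.23 and FSH/EGF above GDF9 by 2.02 and 3.23. The pattern held for Hif1a with equal medians but not after quantile normalization, and for Plaur under neither.

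**Figure D3:**
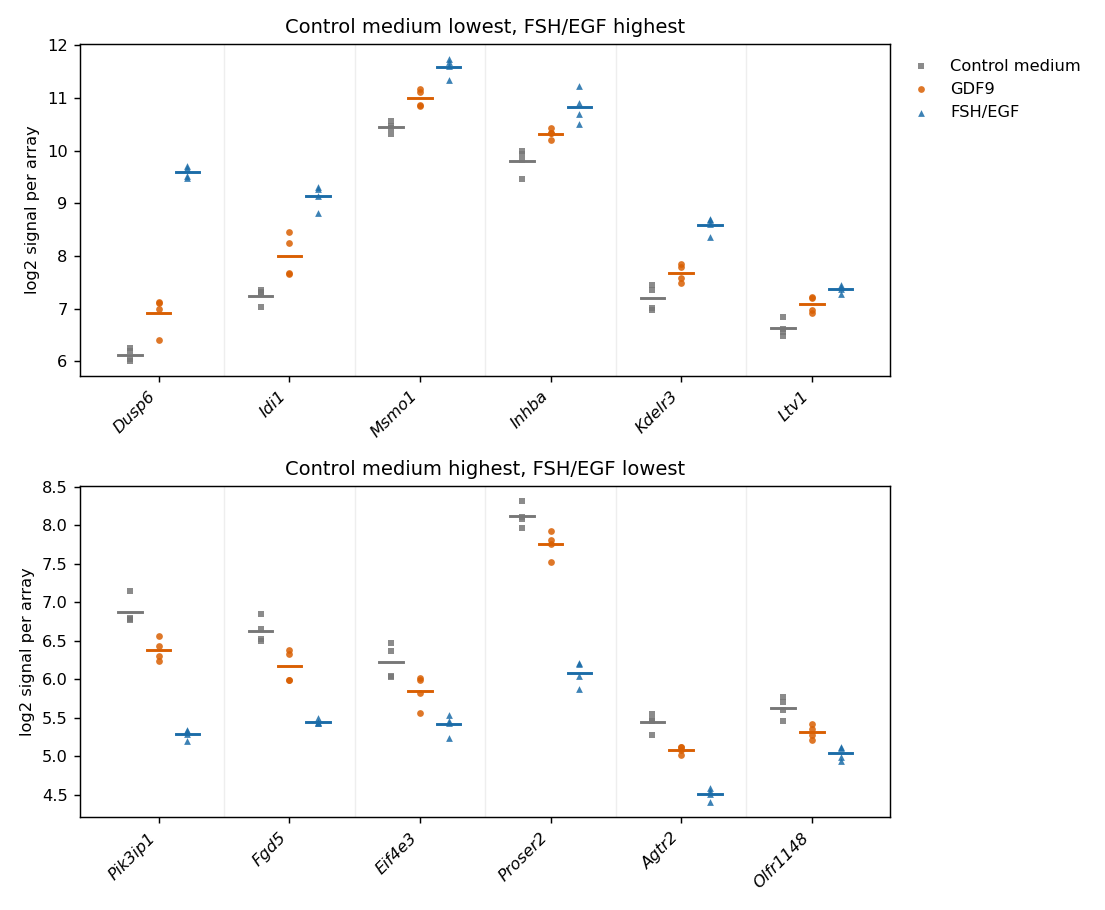
Log2 signal on each array for 6 genes whose 4 control arrays lie below all 8 treated arrays (upper panel) and 6 whose control arrays lie above them (lower panel), with symbols as for the largest changes and bars for means of 4 arrays. Dusp6 steps from 6.13 in control medium to 6.91 with GDF9 and 9.60 with FSH/EGF, and Proser2 steps down from 8.12 to 7.75 and 6.08.

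Genes of cholesterol synthesis were mostly higher with FSH/EGF than with GDF9, and lowest in control medium. Of 18 measured members of the pathway, 14 rose with FSH/EGF over GDF9 (77.8%, against 18.6% of all genes) and 0 were lower. In all 14 the control mean was below both treatments. In 7 the control arrays were below all 8 treated arrays, a pattern found in 145 of all genes tested (0.727%). Of these 7, Idi1, Msmo1, Fdft1 and Dhcr7 kept that pattern under both scalings, Hmgcs1 and Nsdhl lost it after quantile normalization, and Sqle lost it under both. Control lowest was common among bright genes, and it held for 66.6% of all higher genes. Of higher genes it held for 222 of 429 in level class 6, 388 of 617 in class 7 and 509 of 686 in class 8. In class 9 it held for 544 of 681, and in class 10 for 589 of 718. The members of the list lay in classes 6 to 10, where 21.5 to 36% of genes were called higher, against 1.1% in class 1. The shares of all genes given beside each list are not matched for signal level. The list's median difference was 0.74 between the treatments, 1.03 for FSH/EGF minus control and 0.31 for GDF9 minus control, against -0.03, -0.07 and -0.02 over all genes. GDF9 means were above control means in all 18 members, against 8709 of the 19938 genes tested, although no member passed the threshold in that comparison. These baselines take in dim genes. The median of GDF9 minus control was -0.03 in class 6 and 0.02 to 0.07 in classes 7 to 10.

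The mean level of the 18 genes was 7.44 to 7.50 on the control arrays, 7.99, 7.67, 7.84 and 7.60 on the GDF9 arrays, and 8.60, 8.48, 8.60 and 8.24 on the FSH/EGF arrays. The 3 groups did not overlap, and GDF9 arrays 1 and 3 were the highest of their group. They also did not overlap after quantile normalization (7.50 to 7.56, 7.58 to 7.95 and 8.15 to 8.49) or with equal medians (7.38 to 7.48, 7.61 to 8.04 and 8.28 to 8.66). Among the 36 pathway lists, this was the list with the most members whose GDF9 arrays were all above the control arrays, 7 of 18, and no other list had more than 2. Over all genes tested, GDF9 and control arrays did not overlap, in either direction, in 462 (2.32%). The list was picked out here with earlier results of these data known, so its direction is not independent evidence.

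In pathway order, Hmgcs1, which makes HMG-CoA from acetyl units, read 8.04, 8.31, 8.38 and 8.28 in control medium, 8.85, 8.60, 8.79 and 8.46 with GDF9, and 9.68, 9.67, 9.83 and 9.26 with FSH/EGF. Its groups did not overlap, and FSH/EGF exceeded GDF9 by 0.94 (SE 0.13, limma adjusted p = 0.000145). Mvk, Pmvk and Mvd, which act on mevalonate next, did not pass the threshold, with differences of -0.05, 0.32 and 0.34. Pmvk passed without GDF9 array 1, at 0.47, and Mvd passed with equal medians, at 0.38, and without control array 1, GDF9 array 1 or FSH/EGF array 4. Idi1, which isomerizes isopentenyl diphosphate, read 7.03, 7.29, 7.35 and 7.31 in control medium, 8.24, 7.66, 8.46 and 7.67 with GDF9, and 9.31, 9.27, 9.14 and 8.82 with FSH/EGF. GDF9 arrays 1 and 3 were again the higher pair, and no groups overlapped. Its step from control to GDF9, for which it was picked, was 0.76 and did not pass (limma adjusted p = 0.971), and from GDF9 to FSH/EGF it was 1.12 (SE 0.18, limma adjusted p = 0.00044).

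Fdps, which joins the prenyl units, rose by 0.38, but lost the call after quantile normalization, at 0.22 (limma adjusted p = 0.166). Fdft1, which makes squalene, rose by 0.85, the epoxidase Sqle by 1.24, Lss, which closes the sterol rings, by 1.11, and the demethylase Cyp51 by 1.39. Msmo1, the methylsterol oxidase, read 10.57, 10.44, 10.47 and 10.32 in control medium, 11.18, 10.87, 11.12 and 10.85 with GDF9, and 11.68, 11.60, 11.74 and 11.35 with FSH/EGF. Its 2 steps were of similar size, 0.55 and 0.59 (limma adjusted p = 0.00113 for the latter), and the groups did not overlap. Nsdhl rose by 0.52 and Dhcr7, the last reductase of the pathway, by 1.09. Tm7sf2, another sterol reductase, was the only measured member whose control mean was not below both, at 6.19 against 6.23 with GDF9 and 6.18 with FSH/EGF.

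**Figure D4:**
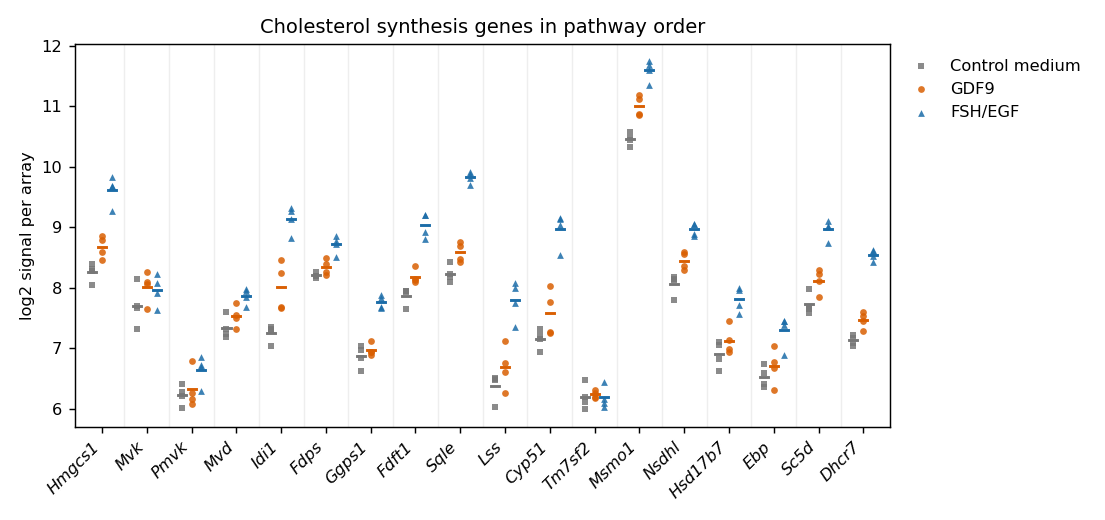
Log2 signal of the 18 measured cholesterol synthesis genes in pathway order, with a point for each array, symbols as for the largest changes and bars for means of 4 arrays. In 17 of the 18 genes the control mean is the lowest of the 3, as for Idi1 at 7.25, 8.01 and 9.13 in control medium, with GDF9 and with FSH/EGF.

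Sterol synthesis genes are known to be switched on by SREBP factors, which act together with NF-Y at CCAAT boxes. Promoters of RefSeq (build GRCm38.p6, 250 bases before to 50 after the start site) were at hand for 15 of the 18 genes. CCAAT on either strand, where it reads ATTGG, occurred in all 15, against 37.4% of the 32851 promoters, 41.7% of the 15614 genes tested that have a promoter and 44.6% of the higher genes. The SREBP element TCACNCCAC occurred in 1 of 15, against 1.24% of promoters, and CACGTG in 3 of 15, against 9.5% of the genes tested. TGANTCA, the AP-1 site, occurred in 2 of 15, against 8.08% of the genes tested. The cyclic AMP element TGACGTCA occurred in 0 of 15 and in 0 of 9 of the largest rises, against 2.72% of the genes tested. At so low a share, a count of 0 in sets this small says little. A match is a description of letters and not a bound site, and absence of a match says only that the letters are not in this window. The 150 bases before the start site of 4 of the genes with control lowest are shown 5′ to 3′ on the strand of the gene, with CCAAT or ATTGG, the SREBP element and the AP-1 site in capitals. They lie at chr13:119690201-119690350 (plus strand) for Hmgcs1, chr13:8885456-8885605 (plus) for Idi1, chr8:64733579-64733728 (minus) for Msmo1 and chrX:72918371-72918520 (plus) for Nsdhl.
Hmgcs1: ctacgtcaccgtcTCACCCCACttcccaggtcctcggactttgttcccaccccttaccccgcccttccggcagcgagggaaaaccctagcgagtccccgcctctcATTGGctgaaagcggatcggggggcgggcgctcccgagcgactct
Idi1: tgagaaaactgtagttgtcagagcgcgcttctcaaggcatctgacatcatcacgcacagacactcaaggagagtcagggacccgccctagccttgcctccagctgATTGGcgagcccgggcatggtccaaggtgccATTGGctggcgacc
Msmo1: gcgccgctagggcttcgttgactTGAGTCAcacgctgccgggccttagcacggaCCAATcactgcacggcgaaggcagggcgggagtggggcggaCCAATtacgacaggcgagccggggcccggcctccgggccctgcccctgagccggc
Nsdhl: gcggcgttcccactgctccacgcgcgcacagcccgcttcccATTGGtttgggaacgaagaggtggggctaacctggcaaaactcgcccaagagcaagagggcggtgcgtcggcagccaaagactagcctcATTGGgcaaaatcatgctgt

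Of 12 measured genes of sterol control and uptake, 6 rose (50%, against 18.6% of all genes), 1 fell (8.33%, against 10.5%) and the others did not pass. Insig1, the sterol sensor that holds SREBP in the endoplasmic reticulum, read 9.10, 9.18, 9.22 and 9.31 in control medium, 9.71, 9.43, 9.54 and 9.54 with GDF9, and 10.62, 10.45, 10.62 and 10.33 with FSH/EGF, and its groups did not overlap. It rose by 0.95 (SE 0.09, limma adjusted p = 4.75e-06) over GDF9. Srebf1, an SREBP gene, rose by 0.82. Insig2 rose by 0.83 too, but its control mean of 6.54 lay beside the GDF9 mean of 6.49.

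Genes with control arrays highest and FSH/EGF lowest were fewer, 26 against 97, but this balance moved with the scaling. It was 52 against 61 after a further quantile normalization and 9 against 117 with equal medians. Those with the largest gaps were Pik3ip1, Fgd5, Eif4e3, Proser2, Agtr2 and Olfr1148. Pik3ip1, an inhibitor of PI3 kinase, read 6.80, 6.77, 6.79 and 7.15 in control medium, 6.30, 6.43, 6.24 and 6.56 with GDF9, and 5.20, 5.29, 5.33 and 5.33 with FSH/EGF. The 3 groups were apart, and FSH/EGF was below GDF9 by 1.10 on the log2 scale (SE 0.10, limma adjusted p = 3.34e-06). Its step from control to GDF9, for which it was picked, was -0.50 and did not pass (limma adjusted p = 0.869).

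Proser2 had means of 8.12 in control medium, 7.75 with GDF9 and 6.08 with FSH/EGF, and fell by 1.67 between the treatments. Fgd5, an exchange factor for the GTPase Cdc42, had means of 6.63, 6.17 and 5.45, and fell by 0.72. Agtr2, the type 2 angiotensin receptor, had means of 5.44, 5.08 and 4.51. Pik3ip1, Fgd5 and Agtr2 kept call and pattern under both scalings. Proser2 did so after quantile normalization only. Eif4e3, a cap-binding protein (6.22, 5.85 and 5.42), and Olfr1148, an olfactory receptor (5.63, 5.31 and 5.04), lost the call under both, with differences of -0.38 and -0.39 for Eif4e3 and -0.22 and -0.23 for Olfr1148. Leaving out GDF9 array 3 or 4 or FSH/EGF array 4 also ended the call of both, GDF9 array 1 or FSH/EGF array 3 that of Eif4e3, and FSH/EGF array 1 that of Olfr1148.

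A further 94 genes did not pass the threshold between the treatments but passed it for the mean of both treatments against control (19.2% of all genes did so) and had control arrays outside all 8 treated arrays. In 39 the treated arrays were higher and in 55 lower. A p that misses the threshold does not show that the treatments had the same level. The 6 highest were Tbc1d8b, Pcf11, Tmem97, Exoc3, Ola1 and Cul5. Tmem97, the sigma-2 receptor, which is linked to cholesterol transport, read 7.98, 7.63, 7.84 and 7.96 in control medium, 8.41, 8.14, 8.19 and 8.27 with GDF9, and 8.52, 8.36, 8.68 and 8.17 with FSH/EGF. Its treated arrays overlapped with each other and not with control, and the treatments differed by 0.18 (95% interval -0.07 to 0.43). Tbc1d8b, a Rab regulator, had means of 6.83, 7.34 and 7.66, and its difference between treatments was 0.32 (limma adjusted p = 0.149).

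Pcf11, a factor of transcript cleavage, had means of 6.70, 7.05 and 7.48 in control medium, with GDF9 and with FSH/EGF. Exoc3, a subunit of the exocyst, had 6.91, 7.25 and 7.53, Ola1 had 6.59, 6.95 and 7.17, and the ubiquitin ligase scaffold Cul5 had 7.08, 7.41 and 7.68. All 6 had FSH/EGF above GDF9 in their means. The difference passed without GDF9 array 1 for Pcf11 (0.53), Exoc3 (0.35) and Cul5 (0.40), without FSH/EGF array 3 for Pcf11 (0.52), without FSH/EGF array 4 for Exoc3 (0.35) and without control array 1 for Tbc1d8b (0.32). The 6 lowest were Oas1e, Frzb, C1qtnf7, Vpreb2, Chrm1 and Bach2os, with control means of 4.54, 4.83, 4.84, 6.87, 6.28 and 5.21 and treatment differences of -0.05 to -0.23. Of these, C1qtnf7 passed without FSH/EGF array 3 (-0.27) and Vpreb2 without FSH/EGF array 2 (-0.31). The files hold no detection calls, so a low value, as for Oas1e, Frzb and C1qtnf7, may be background.

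Of 2369 genes past the threshold with the control mean between, 65 had GDF9 arrays that did not overlap the control arrays. GDF9 and control arrays did not overlap in 462 of all genes tested (2.32%), wherever the control mean lay. With the control mean between as well, this held for 79 of the 19938 genes, and for 14 of the 14134 not past the threshold. A GDF9 mean on the far side of control widens the difference by which the 65 were chosen. The count of 65 is therefore not read as a result about these genes. Among the 65 was Inhbb, the beta B subunit of activin B and inhibin B. Slc35f2 and Id2, given with it, were singled out after their values were seen. Inhbb read 9.90, 9.74, 10.09 and 9.89 in control medium, 10.51, 10.51, 10.62 and 10.14 with GDF9, and 9.20, 8.92, 8.99 and 8.94 with FSH/EGF. For Inhbb, GDF9 was above control by 0.54, which did not pass (limma adjusted p = 0.971), and FSH/EGF was at -0.89 from it. The treatments differed by -1.43 (SE 0.11, limma adjusted p = 9.90e-07). The beta A gene Inhba thus read highest with FSH/EGF and the beta B gene highest with GDF9, while Inha, their shared alpha subunit, fell by 0.43. Slc35f2, a solute carrier that stood in the same class, had means of 7.77 in control medium, 8.37 with GDF9 and 6.39 with FSH/EGF. Id2, an inhibitor of differentiation and BMP target, had means of 6.65, 7.15 and 6.36, but its GDF9 and control arrays overlapped.

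Of 16 measured genes of the cumulus expansion matrix, 9 rose with FSH/EGF over GDF9 (56.2%, against 18.6% of all genes), 3 fell (18.8%, against 10.5%) and the others did not pass. Under either scaling 1 of the 16 fell. Ptgs2, the inducible cyclooxygenase, read 8.56, 8.75, 7.46 and 7.24 with GDF9 and 11.79, 11.93, 11.84 and 12.13 with FSH/EGF, a difference of 3.92 (SE 0.34, limma adjusted p = 2.55e-06). The FSH/EGF arrays lay close together, while the GDF9 arrays split into a higher pair, arrays 1 and 2, and a lower pair. Its control arrays read 7.30, 7.03, 6.35 and 7.70 and overlapped the lower pair. Ptx3, a pentraxin that links the matrix, rose by 3.60 and Tnfaip6, which modifies hyaluronan, by 3.56.

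Has2, the hyaluronan synthase, read 8.64, 8.68, 7.83 and 8.43 with GDF9 and 10.66, 10.41, 10.62 and 10.76 with FSH/EGF. Its difference was 2.22 (SE 0.26, limma adjusted p = 4.34e-05). The control arrays of Has2, at 7.15, 8.02, 7.30 and 8.46, overlapped those of GDF9, and the GDF9 mean was higher by 0.67, which did not pass (limma adjusted p = 0.971). The hyaluronan receptor Cd44 rose by 3.05 from a GDF9 mean of 4.71, and control lay beside it at 4.76. Of 11 measured genes of hexosamine and UDP-sugar synthesis, which supplies hyaluronan, 7 rose (63.6%, against 18.6% of all genes) and 1 fell (9.09%, against 10.5%). Ugdh, the UDP-glucose dehydrogenase, rose by 2.73.

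A list of genes reported as induced by GDF9 in granulosa cells had 15 measured. Of these, 9 rose with FSH/EGF over GDF9 (60%, against 18.6% of all genes) and 3 fell (20%, against 10.5%), with a median difference of 0.66. The largest differences of this list were those of Ptgs2, Ptx3, Tnfaip6 and Has2, already given with the matrix genes. The GDF9 mean was above control in 9 of the 15, against 8709 of the 19938 genes tested, with a median GDF9 minus control of 0.08. Inhbb and the amino acid transporter Slc38a3 (-1.85) were among those lower with FSH/EGF. Of 15 EGF-like ligands, ErbB receptors and their partners, 6 rose (40%, against 18.6% of all genes) and 1 fell (6.67%, against 10.5%). The median difference of this list was -0.09. The ligands Ereg (4.36) and Btc rose, and Ereg was at 4.55 to 4.76 with GDF9 and at 8.53, 8.85, 8.69 and 9.90 with FSH/EGF. Their receptor Egfr fell, from 9.79, 9.64, 9.66 and 9.75 with GDF9 to 7.46, 7.24, 7.56 and 7.31. This was a difference of -2.32 (SE 0.08, limma adjusted p = 5.58e-10), and ligand and receptor moved in opposite directions.

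Of 25 measured targets and feedback inhibitors of ERK, 14 rose (56%, against 18.6% of all genes) and 4 fell (16%, against 10.5%), with a median difference of 0.80. In 12 of the 14 that rose the control mean was lowest. This also held for 66.6% of all higher genes. Of higher genes it held for 222 of 429 in level class 6, 509 of 686 in class 8 and 589 of 718 in class 10. Ier3, an early response gene, rose by 4.15, the zinc finger factor Egr3 by 3.02 and the phosphatase Dusp4 by 2.92. Besides Dusp6, the inhibitor Spred2 stepped from 6.47 in control medium to 6.91 with GDF9 and 8.59 with FSH/EGF, and Etv5, an ETS factor, from 4.91 to 5.24 and 6.71. For both, GDF9 and control arrays overlapped. Myc fell, from 9.41, 9.35, 9.51 and 10.12 with GDF9 to 6.42, 6.76, 6.72 and 7.33 with FSH/EGF, a difference of -2.79 (SE 0.21, limma adjusted p = 5.58e-07). Its control mean of 9.57 was beside the GDF9 mean of 9.60. Jag1, a Notch ligand, rose by 3.26, and its GDF9 arrays of 8.16, 7.91, 7.59 and 8.15 overlapped control arrays of 7.41 to 8.08.

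Of 18 measured genes of FSH response and granulosa differentiation, 13 fell (72.2%, against 10.5% of all genes) and 1, Inhba, rose. Fshr, the FSH receptor, read 8.49, 8.27, 8.54 and 8.59 with GDF9 and 5.24, 5.37, 5.24 and 5.18 with FSH/EGF, a difference of -3.22 (SE 0.09, limma adjusted p = 9.45e-11). Igf1 fell by 2.51, Esr2, the beta estrogen receptor, by 2.29, Amhr2, the receptor of anti-Mullerian hormone, by 2.15, Ccnd2, the D2 cyclin, by 2.09, and the nuclear receptor Nr5a2 by 2.06. For these the control and GDF9 means differed by at most 0.18. Nr5a1, the related receptor, was different in order, with control arrays of 9.06, 9.21, 8.93 and 9.15, GDF9 arrays of 8.86, 8.73, 8.57 and 8.98 and FSH/EGF arrays of 8.42, 8.22, 8.55 and 8.12. It fell by 0.45 (limma adjusted p = 0.011), with control highest.

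Markers of cumulus and granulosa cells were present on all arrays, with a mean over 14 markers of 8.77 to 8.82 with GDF9 and 7.59 to 7.77 with FSH/EGF. Of these, 11 fell (78.6%, against 10.5% of all genes) and 0 rose (against 18.6%). In RNA from a mass of cells, fewer cells of a type and less RNA per cell cannot be told apart. The mean over 22 oocyte markers was 4.81 to 5.01 with GDF9, 4.85 to 5.17 with FSH/EGF and 4.97 to 5.89 in control medium. Of these markers 1 passed the threshold between the treatments, Npm2 at -0.44, and it lost the call under both scalings, at -0.39 and -0.40, in a fit with no moderation, and without any FSH/EGF array or GDF9 array 2, 3 or 4. Of the 22 markers, 21 had the control mean above both. This held for 44% of all genes, and for 66.5 to 68.9% in the dim level classes 2 to 4, with mean signals of 4.45 to 5.19. Defining oocyte genes were highest on control array 4, where Bmp15 read 6.80 against 4.63 to 4.93 on the other control arrays. The part of these markers in the genes with control highest was not tested.

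The mean over 11 theca and stroma markers was 5.94 to 6.10 with GDF9 and 5.71 to 5.78 with FSH/EGF, and that over 12 leukocyte markers 4.74 to 4.97 and 4.78 to 4.85. Endothelial markers read 4.94 to 5.12 and 5.26 to 5.30 in the mean over 12. In that list Cdh5, the endothelial cadherin, rose by 3.28, from 4.73 to 5.00 with GDF9 to 8.02 to 8.31 with FSH/EGF, while Tek (0.33) was the only other of the 12 past the threshold. Surface epithelium markers read 5.45 to 5.68 and 6.02 to 6.12 in the mean over 9, of which only the keratins Krt8 (2.93) and Krt18 (2.69) passed. The 2 measured red blood cell markers read 5.39 to 5.73 and 5.20 to 5.23.

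GDF9 signals through the TGF-beta family receptors and SMADs. Of 21 of these measured, 4 rose (19%, against 18.6% of all genes) and 6 fell (28.6%, against 10.5%), with a median difference of -0.10. The mean of the list was 7.77 to 8.11 per array. In level classes 8 and 9, with mean signals of 7.29 and 8.01, 34.4% and 34.15% of genes were called higher. In these classes 13.64% and 13.89% were called lower. The share of the list that rose was thus not above that of genes of like signal. The co-receptor Tgfbr3 fell by 2.28 and Smad3, a transducer of GDF9, rose by 1.55, from 8.18, 8.04, 7.94 and 8.46 with GDF9 to 9.59, 9.71, 9.56 and 9.95. Among 17 SMAD2/3 target genes, 8 were higher with FSH/EGF than with GDF9 (47.1%, against 18.6%) and 2 lower (11.8%, near the 10.5% of all genes). The feedback inhibitor Smad7 did not pass, at -0.24 (limma adjusted p = 0.327).

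Of 22 ligands and antagonists, 8 rose (36.4%, against 18.6% of all genes) and 5 fell (22.7%, against 10.5%). The mean of this list was 7.41 to 7.68 per array. In level class 8, with a mean signal of 7.29, 34.4% of genes were called higher, near the share of the list, and 13.64% lower. Tgfb1 rose by 3.07, from 8.12, 8.03, 7.87 and 8.01 to 11.05, 11.09, 11.03 and 11.15. The BMP antagonist Nog fell by 2.37. Bmp2 fell by 1.30 and was among the genes with control highest, at 5.73, 6.76, 5.69 and 6.52 in control medium, 5.42, 5.80, 5.11 and 5.97 with GDF9, and 4.19, 4.22, 4.25 and 4.46 with FSH/EGF, although its control and GDF9 arrays overlapped. Of 12 BMP target genes, 3 were higher with FSH/EGF (25%, against 18.6% of all genes) and 6 lower (50%, against 10.5%). Their mean was 6.53 to 6.96 per array. In level class 7, with a mean signal of 6.63, 30.96% of genes were called higher and 15.86% lower. Id1 rose by 1.44 and Id3 fell by 0.99, so members of this small family moved in opposite directions.

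Of 15 genes of glucose uptake and glycolysis, 9 rose (60%, against 18.6% of all genes) and 0 fell (against 10.5%), with 1 lower after a further quantile normalization. The glucose transporter Slc2a1 read 7.95, 7.56, 7.14 and 7.89 with GDF9 and 10.53, 10.61, 10.73 and 11.17 with FSH/EGF, a difference of 3.13 (SE 0.20, limma adjusted p = 1.59e-07), with control at 7.63 beside GDF9 at 7.64. Ldha, lactate dehydrogenase A, rose by 0.72. In fatty acid metabolism 9 of 18 rose (50%, against 18.6%) and 2 fell (11.1%, near the 10.5% of all genes). The desaturase Scd1 rose by 3.30, and read 6.57, 6.19, 6.60 and 5.71 with GDF9 against a mean of 5.91 in control medium. GDF9 arrays 1 and 3 were again the highest of their group. Star, which brings cholesterol to the steroid-making mitochondrion, rose by 2.10 from a GDF9 mean of 4.91. The cystine transporter Slc7a11 rose by 3.18 and the amino acid transporter Slc38a5 fell by 2.36. In their list of 19, 7 rose (36.8%, against 18.6% of all genes) and 4 fell (21.1%, against 10.5%). The mean of that list was 7.49 to 7.85 per array. In level classes 8 and 9, with mean signals of 7.29 and 8.01, 34.4% and 34.15% of genes were called higher, near the share of the list. In these classes 13.64% and 13.89% were called lower.

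Timp1, an inhibitor of matrix metalloproteases, rose by 4.33, while Adamts5, a versican-cleaving protease, fell by 2.16. Adamts5 had control highest in its mean, at 7.97 against 7.19 with GDF9 and 5.03 with FSH/EGF, with overlapping control and GDF9 arrays. Of 15 Notch genes, 6 rose (40%, against 18.6% of all genes) and 3 fell (20%, against 10.5%). Notch2 rose by 2.35. The target Hey2 moved the other way, at -2.87. Heyl, another target, rose by 0.35 (limma adjusted p = 0.047), and lost the call after a further quantile normalization, at 0.28, and without control array 3, GDF9 array 1, 3 or 4, or FSH/EGF array 2, 3 or 4.

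Of 21 genes of G1/S and DNA replication, 6 rose (28.6%, against 18.6% of all genes) and 5 fell (23.8%, against 10.5%). The mean of the list was 7.61 to 7.82 per array. In level classes 8 and 9, with mean signals of 7.29 and 8.01, 34.4% and 34.15% of genes were called higher and 13.64% and 13.89% lower. The share of the list that rose was thus not above that of genes of like signal. Pcna, the sliding clamp of DNA polymerase, rose by 1.02, with control lowest at 8.70, GDF9 at 9.08 and FSH/EGF at 10.10. Mcm4, a helicase subunit, did not pass, at 0.18, but its control arrays of 7.16, 7.11, 7.14 and 7.12 were below its GDF9 arrays of 7.44, 7.45, 7.51 and 7.23 and all FSH/EGF arrays. Acta2, smooth muscle actin, fell by 2.45 and the growth factor Fgf2 rose by 2.66. Kitl, the ligand by which granulosa cells support the oocyte, had a GDF9 mean of 6.29 against 5.75 in control medium and 5.87 with FSH/EGF. It did not pass between the treatments (-0.42, limma adjusted p = 0.17), and GDF9 array 4, at 5.60, was apart from the other GDF9 arrays at 6.28 to 6.73. Without that array the difference for Kitl was -0.65 and passed (limma adjusted p = 0.00514).

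**Figure D5:**
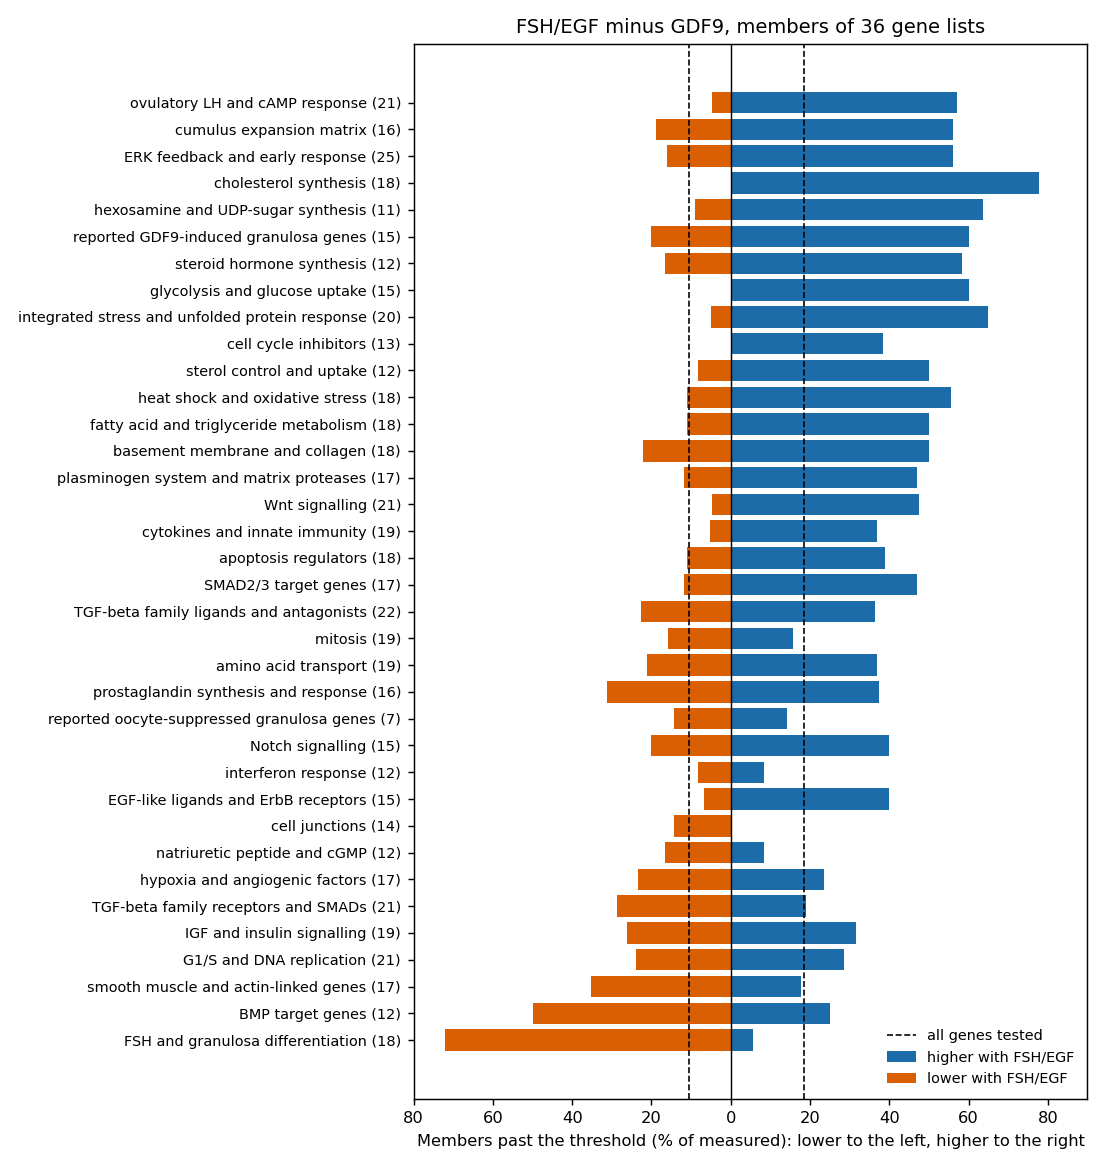
Share of measured members of each of 36 gene lists past the threshold in FSH/EGF minus GDF9, with the number measured in brackets. Bars to the right are members higher with FSH/EGF and bars to the left members lower. The dashed lines give 18.6% and 10.5%, the shares over all genes tested, which are not matched for signal level. Cholesterol synthesis has 77.8% higher and 0 lower, and FSH and granulosa differentiation has 72.2% lower.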

How the data were processed

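The deposited table holds log2 expression values of 35399 probe sets on 12 arrays, as the authors made them. The submitters' processing notes name the tools GCOS, RMA and Partek, with no version or role. The annotation version is not given in the sources used here. A single symbol was given for 21789 probe sets, several for 1621, and 11989 were not listed. Of 19938 genes, 999 had more than 1 probe set, and 19855 matched the mouse gene table.

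limma (version 3.58.1, R 4.3.3) was fitted to all 35399 probe sets with a mean for each of 3 groups of 4 arrays, and p-values were adjusted over all of them by Benjamini-Hochberg (threshold 0.05). The steps were tested on simulated data. Named genes were the 10 largest rises and falls past the threshold, the 6 with the largest control gap in each class whose control arrays lay outside all 8 treated arrays, and, from 36 pathway and 7 marker lists, up to 4 members by size and 2 by control gap, with a few genes named in any case. Outside this rule, the members of cholesterol synthesis were given in pathway order, and Spred2, Etv5, Id2, Inha and Slc35f2 were picked once their values were known. The members and lists were chosen with earlier results of these data known. Precision is limited by the number of arrays.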

Additional observations from a re-analysis of the deposited data

Results flagged for a closer look

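Over the 118 genes with values in the text, 354 groups of 4 arrays were checked for an array far from the others of its group, and 18 held one. Chance alone gives about 1 in 20 groups.

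Control array 1 was low for 4 genes. It read 6.03 for Lss (others 6.48 to 6.50), 8.48 for Hif1a (8.77 to 8.82), 9.96 for Esr2 (10.57 to 10.62) and 7.65 for Fdft1 (7.93 to 7.94). Control array 4 was high for Pik3ip1, at 7.15 (6.77 to 6.80), and for the oocyte gene Bmp15, at 6.80 (4.63 to 4.93), and low for Nsdhl, at 7.79 (8.12 to 8.17).

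Among GDF9 arrays, array 1 was high for Exoc3, at 7.47 (7.15 to 7.20), and for Cul5, at 7.80 (7.28 to 7.29). Array 4 was high for Nr5a2, at 9.29 (9.02 to 9.06). Among FSH/EGF arrays, array 4 was high for Tnfaip6, at 11.13 (10.76 to 10.81), Tgfbr3, at 5.68 (5.40 to 5.42), Fgf2, at 7.81 (7.62 to 7.63), and Tek, at 5.03 (4.86 to 4.88). It was low for Ola1, at 6.99 (7.22 to 7.24), and for Inha, at 11.14 (11.42 to 11.45). FSH/EGF array 1 was low for Fhl1, at 5.32 (5.50 to 5.52), and array 3 high for Oas1e, at 4.19 (3.81 to 3.86).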

How the results depend on the processing

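Leaving out 1 array in turn gave 4974 to 6529 genes past the threshold between the treatments, 3206 to 4105 higher and 1714 to 2424 lower. For the mean of both treatments minus control it gave 2809 to 4350 genes, for the control mean outside both 2814 to 3622, with 2070 to 2662 lowest and 699 to 1205 highest, and for the test that both treatments differ from control 0 to 1. An alternative chosen after seeing the data dropped FSH/EGF array 3 with control arrays 1 and 4, and here 2227 genes passed for the mean of both treatments in place of 3836. With equal array medians, 568 genes were lower with control highest in place of 963. The control mean lay outside both for 5365 genes past the threshold in FSH/EGF minus control (73.2%) and for 753 changed at least 2-fold (57.5%). Over all genes tested this share was 71.4%. Of genes past the threshold, 63.9% were higher, 69.7% with equal medians and 56.3% after a further quantile normalization.

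Same-numbered arrays of the treatments correlated in their deviations from the group means at 0.212, -0.0695, 0.1 and 0.176. For GDF9 arrays 1 to 4, the highest correlation with an FSH/EGF array of another number was 0.28, 0.275, 0.0958 and 0.111. The same number was thus highest for arrays 3 and 4 and not for 1 and 2. These values do not settle whether arrays of the same number belong together. With the replicate number as a block, 5458 genes passed, 3522 higher and 1936 lower. Among the named genes, Ltv1, Eif4e3 and Heyl lost the call under this block (limma adjusted p 0.0694, 0.057 and 0.0757) and Mvd gained it (0.0257).

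Among differences not past the threshold, Bach2os turned to 0.0077 after quantile normalization, and the mean of leukocyte markers to 0.00897 there and 0.00578 with equal medians. Mvk turned to 0.0435 with array weights. Leaving out 1 array gave -0.1725 to 0.058 for Mvk and -0.1356 to 0.0018 for Tm7sf2. The cause of these shifts was not tested.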
